A study of Mus musculus with 17 samples.

Results

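DN3a thymocytes of young mice with an Lmo2 transgene (TG) were compared with DN3a thymocytes of young wild-type mice (WT), 3 RNA-sequencing libraries against 3, out of 17 libraries in the series. The 6 libraries were chosen by their labels for genotype, age class and stage. All mice were C57BL/6. The TG libraries came from 1 male and 2 females aged 2.5 weeks. The WT libraries came from 1 female and 1 male aged 2.5 weeks and from 1 female aged 3 weeks. That last one, WT replicate 3, is also the only one of the 6 whose library name carries the letter b, so its age and that letter cannot be told apart. Each of the 6 libraries is from a different mouse. The p-values rest on a spread between libraries of the same group that was estimated over all 17 libraries, not over these 6 alone. The promoter that drives the transgene is not given in the sources used here. DN3a cells of old mice (TG aged 6 to 10 weeks, WT aged 8 to 10 weeks, 3 libraries each) entered the same fit. So did DN2 cells of young mice, all aged 2.5 weeks (3 TG and 2 WT libraries). These libraries shared the fit's filter and its estimate of spread, and served to test whether an effect differed by age or by stage. The DN2 libraries came from the same mice as the young DN3a libraries, except that the mouse of WT replicate 3 gave no DN2 library. All old mice were female, while each young DN3a group held 1 male.

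LMO2 is a LIM-only protein that does not bind DNA itself. It joins basic helix-loop-helix dimers, made of TAL1 or LYL1 with an E protein such as E2A or HEB, to GATA factors through the bridging protein LDB1. E protein dimers bind the E-box, a short palindromic DNA motif, and drive the T cell receptor programme in thymocytes. Lmo2 is active in blood stem cells and early thymic progenitors and is shut down as cells commit to the T lineage, and its unscheduled expression is a known cause of T cell leukaemia. DN3a cells lack CD4 and CD8, express the interleukin 2 receptor alpha chain (CD25), rearrange the T cell receptor beta locus and await the signal of the pre-T cell receptor, called beta selection.

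The 6 libraries held 7678141 to 10521134 counted reads and at least 1 read in 14474 to 15518 genes. Levels are given in CPM, read counts divided by the TMM-scaled library size, and 1 read equals about 0.1 CPM. Log CPM values of the WT libraries of replicates 1 and 2 correlated at 0.988, and WT replicate 3, the 3-week mouse, correlated with them at 0.971 and 0.974. TG replicates 2 and 3 correlated at 0.977, and TG replicate 1 with them at 0.955 and 0.962. Between genotypes the correlations were 0.926 to 0.951. An unnamed feature held 0.306 to 4.37% of WT reads and 0.876 to 13.9% of TG reads. Of the 636 genes called higher, WT replicate 3 was the highest WT library for 381, against 137 and 109 for replicates 1 and 2. Of the 698 called lower, it was the lowest WT library for 387, against 170 and 141. So for most called genes WT replicate 3 was the WT library nearest to the TG side. Among the TG libraries, replicate 1 was most often the lowest for genes called higher (301). Replicate 2 was most often the highest TG library for genes called lower (297). Such counts were not made for genes that were not called. Whether the place of WT replicate 3 is particular to called genes was therefore not tested.

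The labelled stage was checked against its markers. Il2ra, the CD25 gene, stood at 1899, 1998 and 2120.3 CPM in the 3 WT libraries and at 2309.9, 1922 and 1901 CPM in the 3 TG libraries. Cd44, which DN3a cells have switched off, stood at 1.19 to 6.70 CPM in WT and 2.24 to 5.26 CPM in TG. Cd4 stood at 2.66 to 5.04 and 1.86 to 3.80 CPM, and Cd27, which rises after beta selection, at 183 to 284 and 261 to 292 CPM, so for these genes the genotypes overlapped. The stem cell factor receptor gene Kit, which marks earlier progenitors, stood at 65.8, 56.7 and 80.1 CPM in WT and 129, 136 and 101 CPM in TG and was higher in TG (log2 fold change 0.85 ± 0.24, adjusted p = 0.0265). Ptcra and Rag1, also markers of the stage, were expressed in all 6 libraries but were lower in TG. Cd8a, a CD8 coreceptor gene, was higher in TG. The markers Cd3e, Notch1 and Dtx1 did not pass the test. So several markers of the stage differed between the genotypes, and their levels are given among the T cell genes. In bulk RNA, fewer cells of a type and less RNA per cell cannot be told apart.

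Of 13534 tested genes, 1334 differed between TG and WT at a Benjamini-Hochberg adjusted p under 0.05 in edgeR's quasi-likelihood test. Of all tested genes, 4.7% were higher in TG and 5.16% were lower, and the median log2 fold change of all genes was 0.016. Gene lists are read against these shares. Among genes with over 3 reads in both groups, 176 were at least 4-fold higher and 155 at least 4-fold lower. The libraries of the 2 groups did not overlap for 617 of the genes called higher and 690 of those called lower. Among all tested genes, called or not, all TG libraries lay above all WT libraries for 14.8% and below them for 15.1%. The count of 1334 depended on single libraries: it was 781 without WT replicate 1, 738 without WT replicate 2 and 1380 without WT replicate 3. Without TG replicates 1, 2 and 3 in turn it was 1072, 996 and 898. When the 6 libraries were fitted alone it was 1470. Of the 161 genes described as higher or lower in the text, 111 passed the test without each single library of the 6 in turn. The medians of 11 of the gene lists below lay near 0, from -0.11 to 0.11, and within -0.18 to 0.12 without any 1 library of the 6. For other lists the range is given where single libraries moved the median much.

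**Figure D1:**
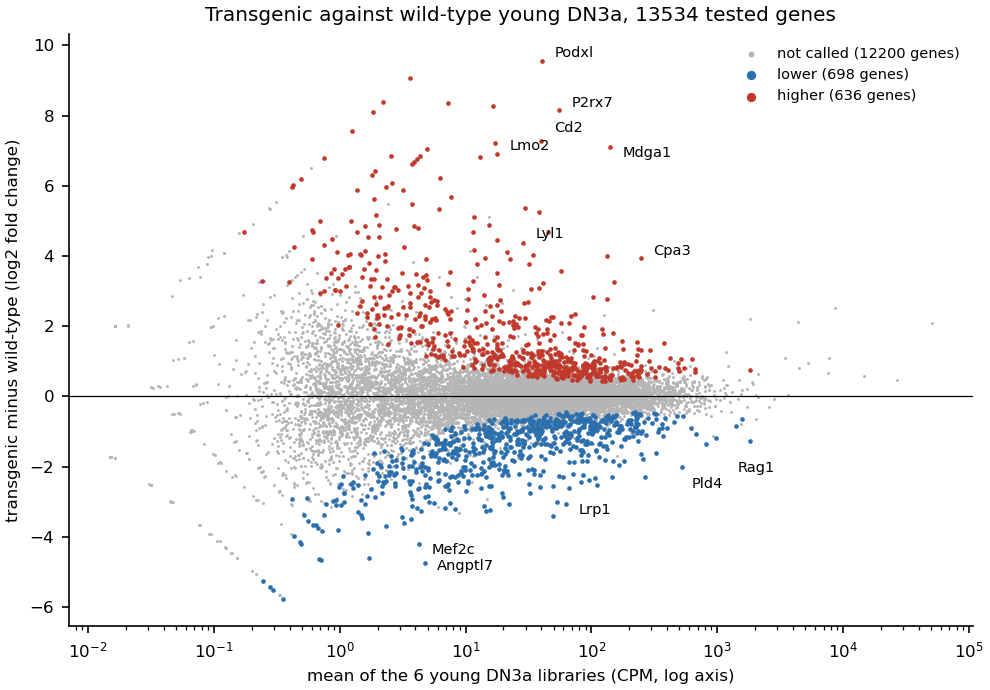
Log2 fold change of TG over WT young DN3a (vertical axis) against mean CPM of the 6 libraries (horizontal log axis) for 13534 genes, with 636 genes called higher in red, 698 called lower in blue and the rest in grey. The genes with the largest changes upwards are near-silent in WT, while the abundant genes Rag1 and Pld4 lie below 0.

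Lmo2 RNA was present in every TG library, and reads of the transgene and of the endogenous gene were not separated. Lmo2 (chromosome 2, 103957903 to 103981878, GRCm38) stood at 0.358, 0.395 and 0.0918 CPM in WT, which rests on 9 reads, and at 31.7, 35.3 and 39.4 CPM in TG. The log2 fold change was 6.92 ± 0.54 (adjusted p = 1.94e-07), and all TG libraries lay above all WT libraries. Of LMO2's direct helix-loop-helix partners, Lyl1 was higher. It stood at 1.07, 0.494 and 6.34 CPM in WT and 39.2, 68.2 and 57.4 CPM in TG, a log2 fold change of 4.37 ± 0.61 (adjusted p = 0.000416). WT replicate 3 was the highest of the WT libraries, and was still below every TG library. Tal1, another of these partner genes, stayed near the detection limit, at 0 to 1.10 CPM in WT and 0.195 to 0.310 CPM in TG. Lmo1, the close relative of Lmo2, was lower, at 1.61, 1.38 and 1.01 CPM in WT and 0, 0.126 and 0 CPM in TG, a 32.99-fold (5.61 to 1333) lower level in TG by reads (adjusted p = 0.00844).

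The scaffold gene Ldb1 and the main E protein genes of thymocytes did not pass the test. Ldb1 stood at 512, 497 and 313 CPM in WT and 332, 357 and 252 CPM in TG (log2 fold change -0.49 ± 0.22, adjusted p = 0.179). Tcf3, the E2A gene, and Tcf12, the HEB gene, had log2 fold changes of -0.04 ± 0.17 and -0.31 ± 0.17 (adjusted p = 0.932 and 0.283). Tcf4, the gene of the third E protein, was lower, at 116, 115 and 106 CPM in WT and 70.9, 57.1 and 58.0 CPM in TG (-0.86 ± 0.17, adjusted p = 0.00196). For Gata3, the GATA factor of T cells, the log2 fold change was 0.27 ± 0.16 (adjusted p = 0.32), and Gata2 rests on 2 WT reads and 17 TG reads. Of 22 tested genes of the complex and its partners, 3 were higher and 2 lower, with a median log2 fold change of -0.05. The lower ones were Lmo1 and Tcf4, and the third gene called higher was Erg, an ETS factor of stem cells, at 32.4, 37.0 and 56.2 CPM in WT and 59.6, 68.4 and 71.6 CPM in TG (0.67 ± 0.19, adjusted p = 0.0292). Among the Id proteins and other E protein inhibitors, which block E protein binding, 1 of 5 was lower. It was Hes1, a Notch target, at 119.8, 139.6 and 145 CPM in WT and 87.5, 64.0 and 66.4 CPM in TG (-0.90 ± 0.21, adjusted p = 0.00839). Id1, Id2 and Id3 had log2 fold changes of -0.89, -0.94 and -0.75 and did not pass the test (adjusted p = 0.439, 0.179 and 0.177).

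Since E protein complexes act at E-boxes, the 150 bases before the start site of genes that moved in both directions are shown, from RefSeq (GRCm38.p6), 5′ to 3′ on the strand of the gene, with each E-box (CANNTG) in capitals. P2rx7 and Tbx4 were among the genes with the largest rises, Ptcra and Rag1 are T cell genes that fell, and Hhex is a progenitor gene that rose.
P2rx7, chr5:122643777-122643926, plus strand: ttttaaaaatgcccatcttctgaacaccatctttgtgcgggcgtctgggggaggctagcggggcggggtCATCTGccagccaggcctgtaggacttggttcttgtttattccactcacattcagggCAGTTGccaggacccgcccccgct
Tbx4, chr11:85896615-85896764, plus strand: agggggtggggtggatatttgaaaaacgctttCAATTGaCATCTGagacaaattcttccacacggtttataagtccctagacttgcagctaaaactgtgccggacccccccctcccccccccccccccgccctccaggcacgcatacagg
Ptcra, chr17:46763713-46763862, minus strand: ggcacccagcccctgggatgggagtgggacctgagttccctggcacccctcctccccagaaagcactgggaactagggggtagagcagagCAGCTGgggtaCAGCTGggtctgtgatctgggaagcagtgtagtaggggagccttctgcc
Rag1, chr2:101649533-101649682, minus strand: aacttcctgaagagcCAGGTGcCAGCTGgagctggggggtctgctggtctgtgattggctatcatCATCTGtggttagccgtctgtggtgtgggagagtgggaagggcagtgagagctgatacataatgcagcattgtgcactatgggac
Hhex, chr19:37434691-37434840, plus strand: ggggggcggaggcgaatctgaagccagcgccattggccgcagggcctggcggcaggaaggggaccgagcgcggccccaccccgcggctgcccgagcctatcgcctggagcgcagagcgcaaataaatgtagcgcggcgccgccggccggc

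These stretches hold 2 E-boxes in P2rx7, 2 in Tbx4, 2 in Ptcra, 3 in Rag1 and 0 in Hhex. The same stretches of Mdga1, Notch3 and Hoxa7, which are not shown, hold 0. Both boxes of Ptcra read CAGCTG. E-boxes are frequent: in the 300 bases around the start, on both strands, CANNTG was found for 63.5% of 10166 tested genes with a promoter in the table. It was found for 67.7% of 473 genes called higher and 65.0% of 531 called lower. Among genes at least 4-fold higher with at least 5 CPM in the higher group the share was 78.9% of 90, and among those at least 4-fold lower 69.8% of 86. The 6-letter form CAGCTG, one of the CANNTG motifs, was found in 14.8% of all, 16.3% of the called higher, 18.8% of the called lower, 23.3% of the strongly higher and 24.4% of the strongly lower genes. For CAGGTG, added after the data were seen, the shares in the same order were 17.4%, 20.1%, 23.7%, 28.9% and 29.1%. For CAGATG they were 11.4%, 12.5%, 13.2%, 15.6% and 13.95%. The GATA letters AGATAA were in 6.64% of all promoters, 9.51% of the called higher, 6.97% of the called lower, 12.2% of the strongly higher and 3.49% of the strongly lower. A match is a stretch of letters and was not tested as a binding site.

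Regulators of stem cells and progenitors split. Of 17 tested genes of that list, 6 were higher and 2 lower in TG, with a median log2 fold change of 0.42 that ranged from 0.09 (without WT replicate 2) to 0.81 (without WT replicate 3). Hhex, a homeobox factor of progenitors, stood at 0.805, 0.395 and 3.95 CPM in WT and 30.96, 24.8 and 24.7 CPM in TG (3.94 ± 0.64, adjusted p = 0.00133). As with Lyl1, WT replicate 3 was the highest WT library and all TG libraries lay above it. Nfe2, a factor of megakaryocytes and their precursors, stood at 24.8, 24.2 and 36.5 CPM in WT and 62.1, 85.2 and 75.7 CPM in TG (1.38 ± 0.30). The lower genes were Mef2c and Bcl11a, both factors of lymphoid progenitors. Mef2c stood at 6.71, 7.41 and 10.4 CPM in WT and 0, 0.628 and 0.584 CPM in TG (-4.19 ± 0.57, adjusted p = 0.000122). Bcl11a stood at 15.9, 14.5 and 21.8 CPM in WT and 2.17, 2.51 and 3.21 CPM in TG (-2.70 ± 0.45, adjusted p = 0.000563), and the groups did not overlap for either gene. Cd34, the classical surface marker of stem cells, stood at 0, 0.198 and 1.75 CPM in WT and 5.26, 0.754 and 0.292 CPM in TG, with overlapping groups (adjusted p = 0.451).

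Hox genes, homeobox factors active in progenitors and in many T cell leukaemias, were lower in 4 of 8 tested genes (median log2 fold change -2.21). Hoxa7 stood at 13.2, 9.88 and 13.8 CPM in WT and 1.24, 1.63 and 1.17 CPM in TG (-3.18 ± 0.40, adjusted p = 4.12e-05). Hoxa5 stood at 4.56, 4.94 and 7.26 CPM in WT and 2.32, 1.51 and 1.46 CPM in TG (-1.67 ± 0.43). Hoxa3 stood at 2.24, 1.58 and 1.93 CPM in WT and 0, 0.377 and 0.389 CPM in TG (-2.75 ± 0.73). For Hoxa4 the 40 WT reads against 2 TG reads gave a 15.3-fold (3.98 to 131) lower level in TG. The groups did not overlap for any of these 4 genes, all of which lie in the Hoxa cluster. Hoxa9, a gene linked to leukaemia, had 21 WT reads and 1 TG read and did not pass the test (adjusted p = 0.132), and 6 further members of the list had no read in these 6 libraries. The count of 4 was 2 without TG replicate 2 or TG replicate 3. In old mice Hoxa5 stood at 6.72 ± 2.08 CPM in WT and at 0 in TG, and Hoxa7 at 12.8 ± 5.57 CPM in WT and 0.0328 ± 0.0569 CPM in TG (mean ± SD, n = 3).

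Among the largest rises were genes of surface proteins that WT DN3a cells hardly expressed. P2rx7 (chromosome 5, 122643927 to 122692336), an ATP-gated ion channel, stood at 0.179, 0.593 and 0.367 CPM in WT and 89.9, 123 and 119 CPM in TG (8.16 ± 0.36, adjusted p = 3.49e-11). Mdga1 (chromosome 17, 29827956 to 29888583), a membrane-anchored adhesion protein of neurons, stood at 0.715, 0.791 and 4.50 CPM in WT and 228, 331 and 279.6 CPM in TG (7.11 ± 0.46, adjusted p = 6.87e-08). Cd2 (chromosome 3, 101275908 to 101287939), an adhesion molecule of T and NK cells, stood at 0.268, 0.791 and 0.459 CPM in WT and 63.8, 83.1 and 92.3 CPM in TG (7.28 ± 0.55, adjusted p = 1.94e-07). In each of these genes the lowest TG library was more than 10 times the highest WT library. Podxl, a sialomucin of stem cells and endothelium, had 3 WT reads and stood at 77.7, 83.7 and 81.1 CPM in TG, 869-fold (297 to 4219.6) higher by reads (adjusted p = 0.00654). Its TG libraries were alike, while Tbx4, a T-box factor of the developing hindlimb and lung, varied, at 15.9, 61.0 and 21.2 CPM, with 3 WT reads (350.2-fold (119 to 1702) higher, adjusted p = 0.000164). Bmpr1a, a receptor of bone morphogenetic proteins, had 1 WT read and stood at 10.4, 11.4 and 21.5 CPM in TG (494-fold (88.1 to 19564) higher, adjusted p = 0.000106). These intervals cover counting error only.

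The remaining genes among the 15 largest rises follow, most of them with lower TG levels than the genes above. Tmem45a, a membrane protein gene, had no WT read and stood at 7.58, 6.03 and 7.98 CPM in TG, at least 77.8-fold higher, taking 3 reads over the WT group as the floor. Serpine2, a protease inhibitor gene, stood at 0.0894, 0.0988 and 0.459 CPM in WT and 16.3, 30.8 and 30.7 CPM in TG (6.82 ± 0.59). Pwwp3b, Kcns3 (a potassium channel subunit), Tgfb2 (a TGF beta ligand) and Slc22a4 (an organic cation carrier) had 2 WT reads each and stood at 8.64 ± 1.66, 8.20 ± 4.03, 7.72 ± 1.17 and 7.44 ± 1.57 CPM in TG (mean ± SD, n = 3). Acnat1, an acyltransferase gene, had 1 WT read and stood at 5.04 ± 2.43 CPM in TG. The value of H2-Q2 (7.21 ± 0.58), a class I gene, is uncertain, since near-identical relatives may have taken or given reads.

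**Figure D2:**
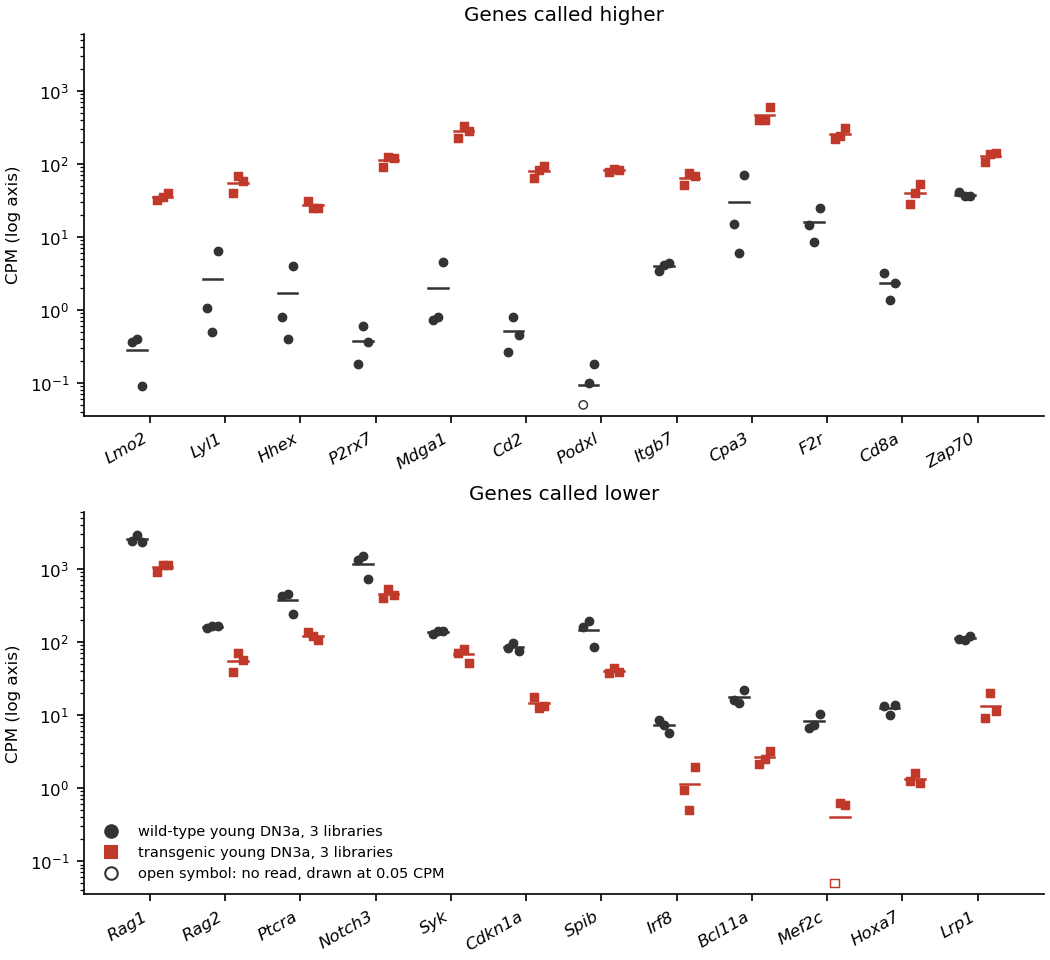
CPM on a log axis in each of the 3 WT libraries (dark circles) and 3 TG libraries (red squares) for 12 genes called higher and 12 called lower, with bars at the group means and open symbols for no read. The groups do not overlap for any of the 24 genes. Among the genes called higher, the third WT library is the highest WT point for Lyl1, Hhex, Mdga1, Itgb7, Cpa3 and F2r.

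The largest falls by fold were in genes of diverse function. Angptl7, a secreted angiopoietin-like protein gene, stood at 9.66, 8.01 and 9.92 CPM in WT and 0, 0.880 and 0.0973 CPM in TG (-4.76 ± 0.74, adjusted p = 0.000261). Lrp1 (chromosome 10, 127538157 to 127621148), a large endocytic receptor, stood at 110.5, 106 and 121 CPM in WT and 9.13, 19.98 and 11.4 CPM in TG (-3.05 ± 0.34, adjusted p = 2.35e-05). Tdrd5, a tudor domain gene of germ cells, stood at 30.9, 29.3 and 24.2 CPM in WT and 2.48, 4.27 and 2.14 CPM in TG (-3.25 ± 0.35, adjusted p = 6.67e-06). For these 3 genes the WT libraries lay close together and far above TG. Adamtsl2, an extracellular matrix gene, stood at 119.7, 123 and 31.3 CPM in WT and 8.51, 10.8 and 6.42 CPM in TG (-3.42 ± 0.72), and Tbkbp1 at 30.3, 36.0 and 8.73 CPM in WT and 3.71, 4.40 and 0.778 CPM in TG (-3.11 ± 0.57). In both genes WT replicate 3 was the lowest of the WT libraries. Atoh8, a helix-loop-helix factor, stood at 25.5, 37.8 and 15.4 CPM in WT and 2.94, 2.77 and 2.43 CPM in TG (-3.27 ± 0.44). The ephrin receptor gene Epha2 (-3.61 ± 0.74), the lipid receptor gene Gpr55 (-3.44 ± 0.62) and the sialyltransferase gene St6galnac3 (-3.27 ± 0.43) were lower from WT means of 5.93 ± 2.59, 5.70 ± 0.838 and 7.99 ± 0.804 CPM (SD, n = 3). Zcchc12 (-3.20 ± 0.55), Klf9 (-3.19 ± 0.68), Rtn4rl1 (-3.12 ± 0.45) and Als2cl (-3.04 ± 0.44), with Mef2c and Hoxa7, complete the 15.

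Ranked by the change in CPM, the top called genes were different ones. The largest fall among called genes was in Rag1, and the next were in Fkbp5, an immunophilin of steroid receptors (1820.4 ± 268 CPM in WT, 1022 ± 102 in TG, mean ± SD, n = 3), and Smarca4, the BRG1 ATPase of chromatin remodelling (1365 ± 153 and 598 ± 37.4 CPM, -1.19 ± 0.18). Notch3 and the kinase gene Lck followed, and are described below. Pld4, a nuclease of the phospholipase D family, stood at 1066, 981 and 478 CPM in WT and 275, 198 and 154 CPM in TG (-2.01 ± 0.32, adjusted p = 0.000525). The lysosomal thioesterase gene Ppt1 (-1.08 ± 0.16) and the Csk-binding adaptor gene Pag1 (-0.90 ± 0.21) were the other two. Among rises, Actb (beta actin) went from 1372 ± 186 to 2295 ± 184 CPM (0.74 ± 0.23, adjusted p = 0.0425). Dpp4, which encodes the CD26 peptidase, went from 405 ± 29.1 to 850.2 ± 45.5 CPM (1.07 ± 0.17). Btg1, an antiproliferative gene (1.53 ± 0.22), Tfrc, the transferrin receptor gene (1.06 ± 0.20), Mbnl1, a splicing factor gene (0.71 ± 0.19), and Atp2a3, a calcium pump gene (0.96 ± 0.16), rose by less than 3-fold each. Among the 8 was also Cpa3, a mast cell protease gene that is active in early progenitors too. It stood at 15.02, 6.03 and 70.0 CPM in WT and 391.6, 402 and 597 CPM in TG (3.93 ± 0.80, adjusted p = 0.00723), with WT replicate 3 again the highest WT library.

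Rag1, Rag2 and Ptcra were lower, while the CD3 chains did not pass the test. Rag1 (chromosome 2, 101638252 to 101649532), which with Rag2 encodes the recombinase, stood at 2425, 2893 and 2357 CPM in WT and 917, 1144 and 1127 CPM in TG (-1.27 ± 0.25, adjusted p = 0.00225). Rag2 stood at 155, 166.2 and 164 CPM in WT and 39.3, 69.8 and 55.9 CPM in TG (-1.56 ± 0.26, adjusted p = 0.00058). These are the 2 genes of 15 tested in the recombination list that changed (median log2 fold change of the list -0.18, from -0.23 (without TG replicate 2) to -0.11 (without WT replicate 3)). Dntt, which adds bases at the joins, had a log2 fold change of -0.64 ± 0.22 (adjusted p = 0.0768). Ptcra (chromosome 17, 46755663 to 46763712), the invariant alpha chain of the pre-T cell receptor, stood at 429, 459 and 242 CPM in WT and 137, 121 and 106 CPM in TG (-1.63 ± 0.31, adjusted p = 0.00214). All TG libraries lay below WT replicate 3, which was itself the lowest of the WT libraries. For Cd3d, Cd3e and Cd3g, the signalling chains, the log2 fold changes were -0.41 ± 0.34, -0.42 ± 0.23 and -0.77 ± 0.27 (adjusted p = 0.512, 0.287 and 0.0798).

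Of 27 genes of pre-T cell receptor and T cell receptor signalling, 5 were higher and 3 lower (median log2 fold change -0.11). The 2 kinases that can carry the receptor signal moved in opposite directions. Syk, the kinase of the early stages, stood at 129, 141 and 143 CPM in WT and 71.5, 79.8 and 52.1 CPM in TG (-1.02 ± 0.16, adjusted p = 0.000304). Zap70, its relative in mature T cells, stood at 40.8, 35.9 and 36.4 CPM in WT and 104, 136 and 139 CPM in TG (1.75 ± 0.19, adjusted p = 7.37e-06). Lck, which starts the signal, was lower (-0.65 ± 0.19, adjusted p = 0.0308). The inhibitory surface receptors Cd5 and Cd6, whose genes are neighbours and which rise when the receptor signals, were both higher. Cd5 stood at 8.67, 8.60 and 10.4 CPM in WT and 37.3, 45.8 and 47.5 CPM in TG (2.24 ± 0.20), and Cd6 at 23.2, 20.7 and 25.7 CPM in WT and 106, 113 and 123 CPM in TG (2.30 ± 0.15, adjusted p = 1.47e-08). Rasgrp1, the exchange factor that activates RAS downstream of the receptor, stood at 116, 114 and 165.7 CPM in WT and 304, 335 and 368 CPM in TG (1.35 ± 0.20).

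Both CD8 coreceptor genes were higher. Cd8a stood at 3.22, 1.38 and 2.30 CPM in WT and 27.9, 40.0 and 52.4 CPM in TG (4.11 ± 0.65, adjusted p = 0.000733), and its neighbour Cd8b1 at 1.252, 1.78 and 1.93 CPM in WT and 19.97, 22.9 and 25.5 CPM in TG (3.78 ± 0.71, adjusted p = 0.00217). All TG libraries lay above all WT libraries for both. Cd4 did not pass the test (-0.47 ± 0.57, adjusted p = 0.673). Of 10 tested coreceptor genes and regulators, Runx3, which silences Cd4 and supports Cd8, was the third that was higher, at 37.2, 39.4 and 57.9 CPM in WT and 65.5, 85.6 and 82.5 CPM in TG (0.80 ± 0.22), and Satb1, a chromatin organiser, was lower (-0.55 ± 0.16).

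Most regulators of T lineage commitment did not pass the test. Bcl11b, the factor that fixes commitment, stood at 968, 1052 and 853 CPM in WT and 762, 654 and 619 CPM in TG (-0.50 ± 0.17, adjusted p = 0.0703), and Tcf7 at 1625 ± 214 and 2140.0 ± 406 CPM (0.40 ± 0.20, adjusted p = 0.231). Of 18 genes on the list, 3 were higher and 2 lower (median -0.05). Ikzf3, the Aiolos gene, normally rises at later stages and stood at 2.504, 5.73 and 5.33 CPM in WT and 20.3, 27.1 and 33.5 CPM in TG (2.58 ± 0.39). Tox2 was higher from under 1 CPM (2.39 ± 0.54), and Ets2 was lower (-0.74 ± 0.16).

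The Notch receptor drives the DN3a stage. Of 25 tested genes of its pathway, 2 were lower, Hes1 and Notch3, and the median log2 fold change was -0.01. Notch3, itself a Notch target, stood at 1311, 1489 and 725 CPM in WT and 395, 538 and 434 CPM in TG (-1.37 ± 0.31, adjusted p = 0.00721). WT replicate 3 was the lowest WT library and lay above all TG libraries. Notch1 and its target Dtx1 overlapped between the groups, at 1895, 2379.5 and 1435 CPM in WT and 1316, 1693 and 1628 CPM in TG for Notch1 (adjusted p = 0.613) and with a log2 fold change of -0.23 ± 0.27 for Dtx1 (adjusted p = 0.673).

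Genes of later T cell stages were among those that rose. Of 20 tested genes that mark beta selection, 8 were higher and 1 lower, with a median log2 fold change of 0.48. Besides Cd2, the higher ones included the costimulatory receptor gene Slamf1, at 7.87, 7.22 and 10.2 CPM in WT and 36.8, 42.0 and 44.5 CPM in TG (2.28 ± 0.27), and the tetraspanin gene Cd53, at 62.1, 48.2 and 87.2 CPM in WT and 285, 190.2 and 219 CPM in TG (1.81 ± 0.25). Cd160 (1.15 ± 0.32) was higher too, and Tfrc, named above, is on the same list. The lower gene was Ccr9, the thymic homing receptor, at 170.4, 133 and 116 CPM in WT and 34.8, 20.99 and 21.4 CPM in TG (-2.45 ± 0.47, adjusted p = 0.00379). The costimulatory receptor gene Cd28 did not pass the test (0.22 ± 0.38, adjusted p = 0.791). Of the 8 higher genes of the list, 4 were called without WT replicate 1, 4 without WT replicate 2 and 5 without TG replicate 3.

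Among 20 tested genes of mature alpha beta T cells and of thymic exit, 7 were higher and 3 lower (median 0.46). Klf2, the factor that licenses exit, stood at 0.715, 0.692 and 2.11 CPM in WT and 14.7, 13.95 and 13.1 CPM in TG (3.55 ± 0.51, adjusted p = 0.000189). Itgb7, an integrin subunit for gut homing, stood at 3.40, 4.15 and 4.32 CPM in WT and 51.5, 74.0 and 67.8 CPM in TG (4.03 ± 0.32, adjusted p = 2.48e-07). Gimap3 stood at 0.268, 0.0988 and 0.184 CPM in WT and 4.33, 6.54 and 5.35 CPM in TG (4.77 ± 0.78), and its neighbour Gimap4 at 1.34, 0.593 and 0.827 CPM in WT and 3.10, 5.53 and 7.69 CPM in TG (2.55 ± 0.51), both small GTPase genes of lymphocyte survival. Il4ra, the interleukin 4 receptor gene, was also higher (1.58 ± 0.35). The surface antigen gene Cd52 was among the lower genes (-0.88 ± 0.27, adjusted p = 0.0467). The interleukin 7 receptor gene Il7r, which mature cells express again, did not pass the test (0.14 ± 0.17, adjusted p = 0.68). The 3 calls of lower genes became 1 without WT replicate 2 or TG replicate 1, and 0 without WT replicate 3, TG replicate 2 or TG replicate 3.

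Genes of cytokine receptors and of feedback inhibitors of their signalling changed in both directions, with 6 higher and 4 lower of 30 tested. Il12rb2, an interleukin 12 receptor chain, stood at 20.4, 20.5 and 34.1 CPM in WT and 86.1, 118 and 116 CPM in TG (2.10 ± 0.26). Il9r, the interleukin 9 receptor gene, stood at 20.7, 19.4 and 12.2 CPM in WT and 38.5, 69.6 and 64.5 CPM in TG (1.73 ± 0.31). The feedback inhibitors of cytokine signalling split. Cish stood at 51.8, 64.9 and 32.4 CPM in WT and 19.7, 14.3 and 12.6 CPM in TG (-1.69 ± 0.33) and Socs3 at 76.4, 94.1 and 39.1 CPM in WT and 26.3, 27.7 and 24.04 CPM in TG (-1.43 ± 0.36), while Socs2 was higher (1.68 ± 0.50, adjusted p = 0.0424). The list's median was 0.04, or 0.04 with a gene without WT reads at its bound and a gene at the floor left out. The 6 higher calls became 3 without WT replicate 1, WT replicate 2 or TG replicate 2, and the 4 lower calls became 2 without WT replicate 1, TG replicate 1 or TG replicate 3.

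Of 27 chemokine receptor, integrin and adhesion genes, 8 were higher and 3 lower, with a median of 0.53. Podxl, Cd2, Mdga1 and Itgb7, named above, are among the 8. Itgb3, the beta 3 integrin subunit of platelets and osteoclasts, stood at 21.999, 20.95 and 23.1 CPM in WT and 75.8, 113 and 92.1 CPM in TG (2.09 ± 0.24). Itgb2, the leukocyte integrin subunit, stood at 24.1, 23.8 and 21.4 CPM in WT and 60.5, 88.7 and 81.6 CPM in TG (1.74 ± 0.17). Itgae, the CD103 subunit that pairs with Itgb7, moved the other way, from 35.9, 44.0 and 18.1 CPM in WT to 7.89, 8.42 and 6.62 CPM in TG (-2.10 ± 0.42, adjusted p = 0.00259).

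Of 19 purine receptor and ion channel genes, 2 were higher and 1 lower. Beside P2rx7, its chromosomal neighbour P2rx4 was higher, at 13.5, 13.3 and 9.92 CPM in WT and 25.4, 22.1 and 15.1 CPM in TG (0.76 ± 0.23, adjusted p = 0.0426). P2rx1, another ATP-gated channel, was lower, at 25.4, 31.9 and 15.4 CPM in WT and 5.73, 5.28 and 3.99 CPM in TG (-2.28 ± 0.61, adjusted p = 0.0225). Of 29 genes of the TGF beta, BMP and Wnt pathways, 4 were higher and 1 lower. Beside Bmpr1a, the higher ones were Wnt5b, a Wnt ligand (4.38, 6.62 and 4.41 CPM in WT and 16.6, 21.6 and 25.3 CPM in TG, 2.04 ± 0.37), Axin2, a feedback inhibitor and common readout of Wnt signalling (9.30, 10.97 and 10.1 CPM in WT and 29.7, 31.05 and 26.2 CPM in TG, 1.52 ± 0.21), and Smad7, a feedback inhibitor of TGF beta signalling (1.09 ± 0.29). The TGF beta receptor gene Tgfbr1 was lower (268 ± 32.03 CPM in WT and 141 ± 14.2 in TG, mean ± SD, n = 3, -0.93 ± 0.18). The medians of the 2 lists were 0.11 and 0.04.

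**Figure D3:**
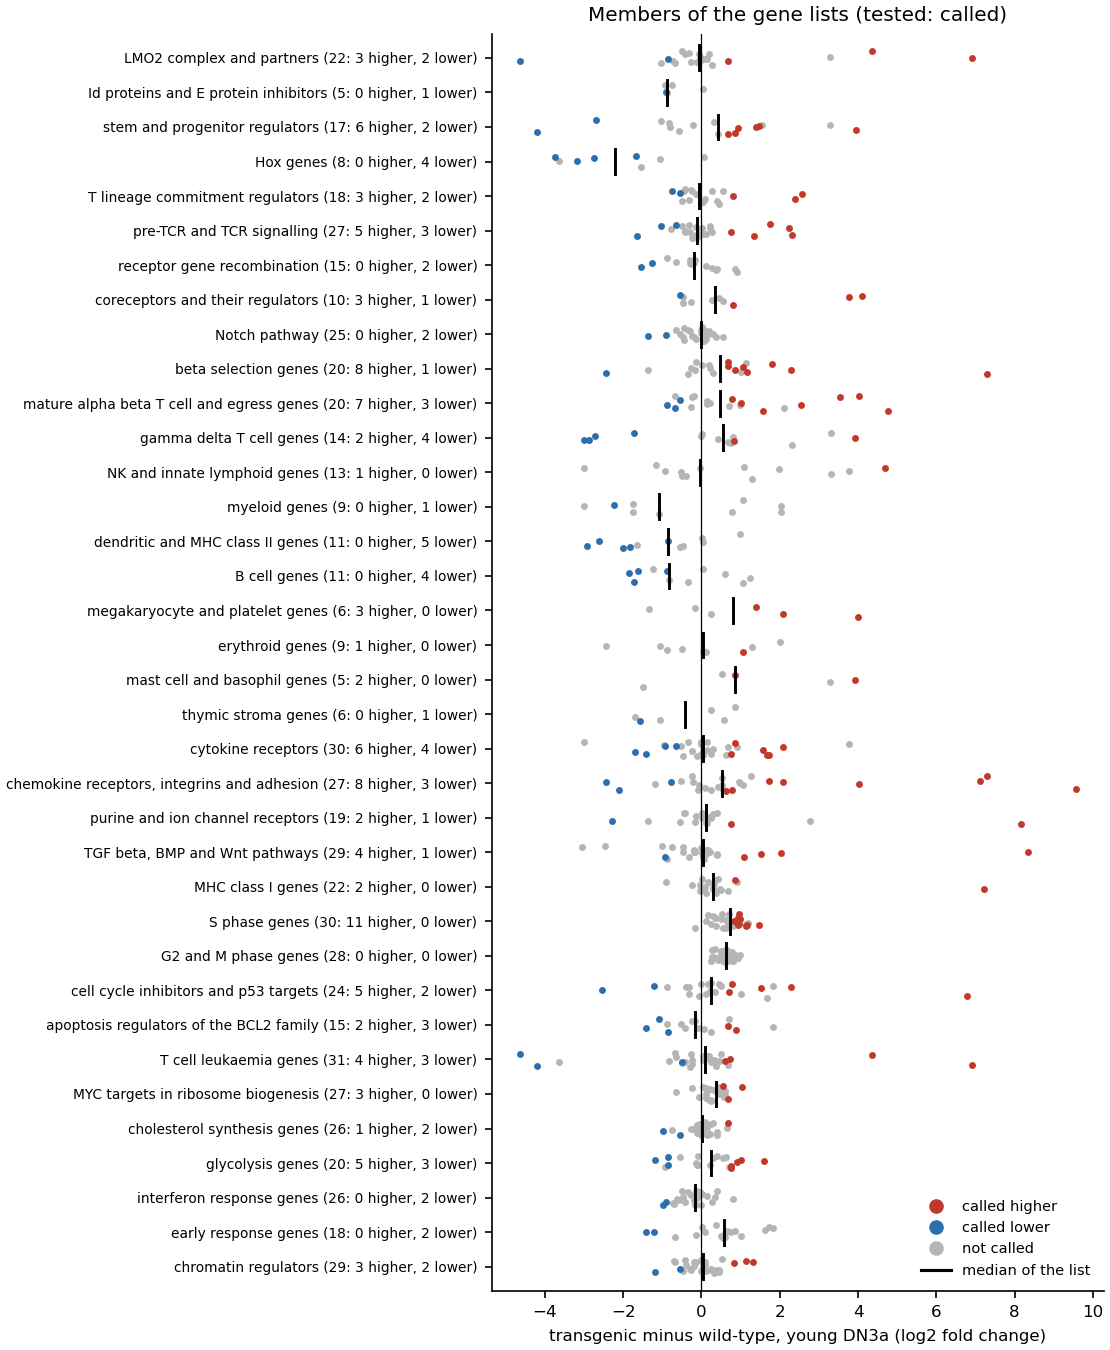
Log2 fold change of TG over WT young DN3a for each tested member of the 36 gene lists (points, red where called higher, blue where called lower, grey otherwise), with the list's median as a black bar. The medians of the S phase and G2 and M phase lists lie above 0 at 0.72 and 0.62 with nearly all members to the right of 0, while the Hox median lies at -2.21.

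Genes of S phase were among those that rose. Of 30 tested, 11 were higher and 29 had a log2 fold change above 0 (median 0.72, from 0.50 (without TG replicate 3) to 1.03 (without WT replicate 3)). Ccne1, the cyclin E gene that starts S phase, stood at 9.84, 7.22 and 11.2 CPM in WT and 26.9, 25.8 and 26.3 CPM in TG (1.48 ± 0.42). Cdc6, a replication licensing factor, stood at 28.98, 25.9 and 50.6 CPM in WT and 69.2, 75.5 and 90.6 CPM in TG (1.16 ± 0.29). Pcna, the sliding clamp gene, stood at 105, 97.9 and 165 CPM in WT and 226, 195 and 298 CPM in TG (0.97 ± 0.24, adjusted p = 0.0136). In these 3 genes WT replicate 3 was the highest WT library and still below TG. Pole, a DNA polymerase gene (1.00 ± 0.24), was also higher. The count of 11 rests on single libraries: it was 2 without WT replicate 1, 1 without WT replicate 2, 7 without TG replicate 2 and 3 without TG replicate 3, and it was 19 without WT replicate 3. With DESeq2 it was 12, and with limma voom 25.

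Genes of G2 and M phase did not pass the test. All 28 tested had a log2 fold change above 0 (median 0.62, from 0.33 (without WT replicate 2) to 1.13 (without WT replicate 3)), and 0 passed in edgeR, with 4 at an unadjusted p under 0.05, against 0 called higher by DESeq2 and 25 by limma voom. Without WT replicate 3, 5 were called higher by edgeR. Mki67, the proliferation marker, shows the spread: it stood at 444, 249.3 and 597 CPM in WT and 865, 919 and 557 CPM in TG, and the groups overlapped (0.86 ± 0.46, adjusted p = 0.283). WT replicate 3 was above TG replicate 3. Summed over the list, WT libraries ranged from 1151 to 3117 CPM and TG libraries from 2793 to 3633 CPM.

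Inhibitors of the cell cycle and p53 targets moved in both directions, with 5 higher and 2 lower of 24. Cdkn1a, the p21 gene, stood at 83.3, 95.8 and 75.0 CPM in WT and 17.8, 12.3 and 13.3 CPM in TG (-2.55 ± 0.50, adjusted p = 0.00378), and the antiproliferative gene Btg2 was lower (-1.20 ± 0.25). Cdkn2a, the p16 and ARF tumour suppressor gene, had no WT read and stood at 2.17, 2.01 and 0.292 CPM in TG, at least 14.3-fold higher on 33 TG reads (adjusted p = 0.00176). Cdkn2c, the p18 gene, stood at 4.65, 3.36 and 8.73 CPM in WT and 22.1, 30.2 and 29.1 CPM in TG (2.28 ± 0.34). Cdkn2d, the p19 inhibitor gene (0.70 ± 0.21), and Rbl1, a retinoblastoma relative (0.78 ± 0.18), were higher, as was Btg1, named above. Without WT replicate 2 the count of higher genes on the list was 3.

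In the BCL2 family, which controls apoptosis, 2 of 15 genes were higher and 3 lower (median -0.18, from -0.29 (without TG replicate 3) to -0.05 (without WT replicate 3)). The lower ones included 2 killers, Bmf, at 203, 235 and 105 CPM in WT and 64.7, 71.5 and 66.1 CPM in TG (-1.42 ± 0.26), and Bcl2l11, the BIM gene, at 78.7, 79.7 and 58.7 CPM in WT and 36.2, 45.1 and 39.1 CPM in TG (-0.85 ± 0.18), and 1 protector, Bcl2l2 (-1.08 ± 0.24). The higher ones were Bid, a killer (0.87 ± 0.18), and Bcl2l1, the BCL-XL protector gene (0.67 ± 0.19).

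Markers of other lineages were read as lists, since the sort could hold other cells and since progenitor programmes share these genes. Genes of dendritic cells and MHC class II were lower in 5 of 11 tested. Irf8, a factor of dendritic cells and B cells, stood at 8.67, 7.41 and 5.69 CPM in WT and 0.929, 0.503 and 1.95 CPM in TG (-2.63 ± 0.41), and the peptide-loading gene H2-DMa at 42.2, 34.9 and 32.4 CPM in WT and 10.2, 8.42 and 12.2 CPM in TG (-1.83 ± 0.25). The summed level of the list was 326 to 374 CPM in WT and 191 to 241 CPM in TG, with 2 members at 0 in all 6 libraries (Batf3 and Siglech). The integrin gene Itgax, which defines dendritic cells, was under 1.1 CPM in all libraries and was called lower in TG. That call was lost without WT replicate 1, WT replicate 2, TG replicate 2 or TG replicate 3. B cell genes were lower in 4 of 11. Spib, an ETS factor, stood at 160.0, 191 and 84.4 CPM in WT and 37.8, 44.5 and 39.1 CPM in TG (-1.84 ± 0.29). Ly6d stood at 568, 503 and 408 CPM in WT and 175, 149 and 159 CPM in TG (-1.61 ± 0.24), and Cd79b (-0.88 ± 0.21) and Blk (-1.72 ± 0.26) were lower too. The summed list stood at 585 to 834 CPM in WT and 248 to 276 CPM in TG, with Ebf1 and Ms4a1 at 0. The median of the dendritic list was -0.86, from -1.54 (without TG replicate 1) to -0.80 (without TG replicate 2). The median of the B cell list was -0.83, from -0.96 (without TG replicate 1) to 0.03 (without WT replicate 3). So the sign of that median rests on WT replicate 3. The count of B cell genes called lower was still 4 without WT replicate 3, and 3 without WT replicate 1. What part other cells have in these levels was not tested.

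Of 6 tested genes of megakaryocytes and platelets, F2r, Itgb3 and Nfe2 were higher (median 0.81). F2r, the thrombin receptor gene, stood at 14.3, 8.50 and 24.4 CPM in WT and 215, 237 and 305 CPM in TG (4.0 ± 0.44, adjusted p = 4.07e-05). The platelet genes Pf4, Gp1bb, Treml1 and Ppbp had no read in any of the 6 libraries, and the summed list stood at 93.0 to 145 CPM in WT and 387 to 521 CPM in TG. Mast cell and basophil genes were higher in 2 of 5, Cpa3 and Kit, with 8 members of the list, including the IgE receptor gene Fcer1a and the protease genes Mcpt8 and Tpsb2, at 0 in all 6 libraries. Their summed level, mostly Cpa3 and Kit, was 65.4 to 153 CPM in WT and 522 to 700.4 CPM in TG. Of 9 erythroid genes, Tfrc was the 1 that was higher, and Gata1 stood at 7.16 to 7.91 CPM in WT and 7.396 to 8.67 CPM in TG. The erythroid list summed to 342 to 404 CPM in WT and 668 to 767 CPM in TG, mostly Tfrc, with Hba-a1 and Car1 at 0 (median log2 fold change 0.04).

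Myeloid genes were lower in 1 of 9, Lyz2, the lysozyme gene, at 20.03, 14.04 and 21.8 CPM in WT and 3.56, 5.03 and 3.21 CPM in TG (-2.24 ± 0.33, adjusted p = 0.000184). The myeloid list summed to 60.3 to 98.6 CPM in WT and 33.2 to 60.4 CPM in TG, with 5 members at 0 and a median of -1.09, from -1.28 (without TG replicate 3) to 0.00 (without WT replicate 2), 4 of 9 members being at or under the floor of 3 reads in both groups. Of 13 genes of natural killer and innate lymphoid cells, 1 was higher, Gzmb, with no WT read and 8 TG reads. The list's median was -0.03, from -0.36 (without TG replicate 3) to 0.51 (without WT replicate 3), or -0.21 when members with no read in 1 group are set at their bound or dropped, and its sum 70.0 to 89.5 CPM in WT and 44.1 to 75.4 CPM in TG. Of 14 gamma delta T cell genes, 2 were higher and 4 lower (median 0.56, or 0.43 without Zbtb16, which had no WT read and 3 TG reads). Sox13, a factor of gamma delta cells, was higher (103, 116 and 106 CPM in WT and 145, 234 and 193 CPM in TG, 0.82 ± 0.18), while Maf (-2.72 ± 0.60) and Il17re (-2.86 ± 0.47), genes of interleukin 17 producing cells, were lower. The other higher member was Cpa3, whose level is given above. Of 6 thymic stroma genes, Epcam, which thymocytes also express, was lower (138, 142 and 104 CPM in WT and 50.5, 38.2 and 39.7 CPM in TG, -1.58 ± 0.21). The stroma list summed to 355 to 409.9 CPM in WT and 379 to 474 CPM in TG (median log2 fold change -0.41, from -0.63 (without TG replicate 3) to -0.17 (without TG replicate 2)), with the epithelial genes Foxn1, Krt5, Krt8 and Krt14 at 0 in all 6 libraries. The gamma delta list summed to 838 to 1010.0 CPM in WT and 1483 to 2027 CPM in TG, sums that include Cpa3 (30.3 ± 34.6 CPM in WT and 463 ± 116 CPM in TG, mean ± SD, n = 3).

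The remaining lists held few calls. Of 22 MHC class I genes, H2-Q4 was higher (93.5 ± 13.9 CPM in WT, 169 ± 39.8 in TG, mean ± SD, n = 3, 0.85 ± 0.23) along with H2-Q2, and both belong to the family with near-identical members. Of 27 MYC targets in ribosome biogenesis, 3 were higher, Rrp12 (1.05 ± 0.20), Utp20 (0.68 ± 0.19) and Nolc1 (0.54 ± 0.14), all factors of ribosomal RNA processing, and 24 had values above 0 (median 0.36). Without WT replicate 1, WT replicate 2 or TG replicate 3, 1 of the 3 was called. Of 20 glycolysis genes, 5 were higher and 3 lower. Pfkp, a phosphofructokinase isoform, stood at 24.7, 22.1 and 23.1 CPM in WT and 59.9, 65.2 and 86.8 CPM in TG (1.60 ± 0.18, adjusted p = 8.15e-06), while the muscle isoform gene Pfkm went from 56.4 ± 2.90 to 31.1 ± 3.84 CPM (-0.86 ± 0.17). Slc16a1, the lactate carrier gene, was higher (1.01 ± 0.16) and the pyruvate dehydrogenase kinase gene Pdk1 was lower (-0.85 ± 0.17). The 5 higher glycolysis genes became 2 without WT replicate 1 or 2 and 3 without TG replicate 3. Of 26 cholesterol synthesis genes, Ebp was higher (0.67 ± 0.18), and Dhcr7 (-0.55 ± 0.17) was among the 2 lower ones. Of 26 interferon response genes, the viral sensors Ifih1 (-0.99 ± 0.24) and Zbp1 (-0.90 ± 0.25) were lower. Of 18 early response genes, which cell handling can also induce, Socs3 and Btg2 were lower, and Fos varied from 11.2 to 82.8 CPM in WT and from 7.29 to 95.1 CPM in TG. Of 29 chromatin regulators, 3 were higher, Phf19 (1.32 ± 0.31) and Cbx2 (1.13 ± 0.19), both Polycomb proteins, and Igf2bp3, a fetal RNA-binding protein gene (61.7, 60.4 and 82.1 CPM in WT and 109, 126 and 129 CPM in TG, 0.83 ± 0.16), and 2 lower, Smarca4 and Satb1. Of 31 genes mutated or misexpressed in T cell leukaemia, 4 were higher, among them Lmo2, Lyl1 and Stat5a (0.72 ± 0.15), and 3 lower, Lmo1, Mef2c and Jak1 (-0.49 ± 0.15). The median log2 fold changes of the class I, glycolysis, cholesterol, interferon, early response, chromatin and leukaemia lists were 0.29, 0.25, 0.01, -0.16, 0.58, 0.04 and 0.10. Single libraries moved several of them. The class I median ranged from 0.15 (without TG replicate 1) to 0.37 (without WT replicate 3), and the glycolysis median from -0.08 (without TG replicate 3) to 0.35 (without TG replicate 1). The interferon median ranged from -0.45 (without TG replicate 1) to 0.00 (without TG replicate 3), and that of the early response list from 0.21 (without TG replicate 3) to 1.27 (without WT replicate 3).

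Some called genes lie side by side on the chromosome. In windows of 11 neighbouring tested genes, the highest count of lower genes was 7, in 2 of 12875 windows. They cover the Hoxa cluster and its flanks on chromosome 6 (51523900 to 52640300, GRCm38). Besides the 4 Hoxa genes, the 7 are Mira, a non-coding RNA of the cluster (11.4, 7.51 and 17.8 CPM in WT and 2.63, 1.89 and 1.75 CPM in TG, -2.56 ± 0.43), and the flanking genes Snx10 (-0.65 ± 0.20) and Hibadh (-0.80 ± 0.17). All 11 values in the window were below 0. A second run lies on chromosome 11 (117765985 to 118024011), with 6 of 11 lower, and the window of 21 genes around it (117199661 to 118489209) held 10 lower genes. They are Tmc6, Tmc8, Syngr2, Afmid, Socs3, Pgs1, Cyth1, Timp2, C1qtnf1 and Engase, of which C1qtnf1 fell most (49.2, 46.6 and 48.8 CPM in WT and 19.7, 12.7 and 10.996 CPM in TG, -1.75 ± 0.22). For Tmc6, Tmc8, Syngr2, Afmid, Socs3 and Engase WT replicate 3 lay well below the other WT libraries, and for Tmc6 and Tmc8 it overlapped with TG. Birc5 and Tk1, cell cycle genes in the same stretch, lay above 0 and did not pass the test (adjusted p = 0.337 and 0.351).

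For rises, the highest count in 11 neighbours was 6, in 2 windows, on chromosome 11 (53949954 to 55033471). Within it the adjacent genes Slc22a4, Pdlim4 and P4ha2 went from a few reads in WT to means of 7.44 ± 1.57, 4.64 ± 1.45 and 2.75 ± 1.43 CPM in TG (SD, n = 3). Pdlim4 is a cytoskeletal adaptor gene and P4ha2 a collagen prolyl hydroxylase gene. Slc22a21, next to Slc22a4, and Fnip1, next to P4ha2, overlapped between the groups (log2 fold change 0.00 ± 0.34 and -0.06 ± 0.25). Rapgef6 (0.89 ± 0.23), Hint1 (0.83 ± 0.24) and Anxa6 (0.62 ± 0.18), further along, were higher by smaller folds. A window on chromosome 5 (122323223 to 122779522) held 5 higher genes, among them P2rx7 and its neighbours P2rx4, Camkk2 (0.71 ± 0.19), Ift81 (1.81 ± 0.38) and Atp2a2 (0.57 ± 0.16). Over whole chromosomes, the share of genes called lower was highest on chromosome 6 (8.45% of 663) and that of genes called higher also (6.49%).

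**Figure D4:**
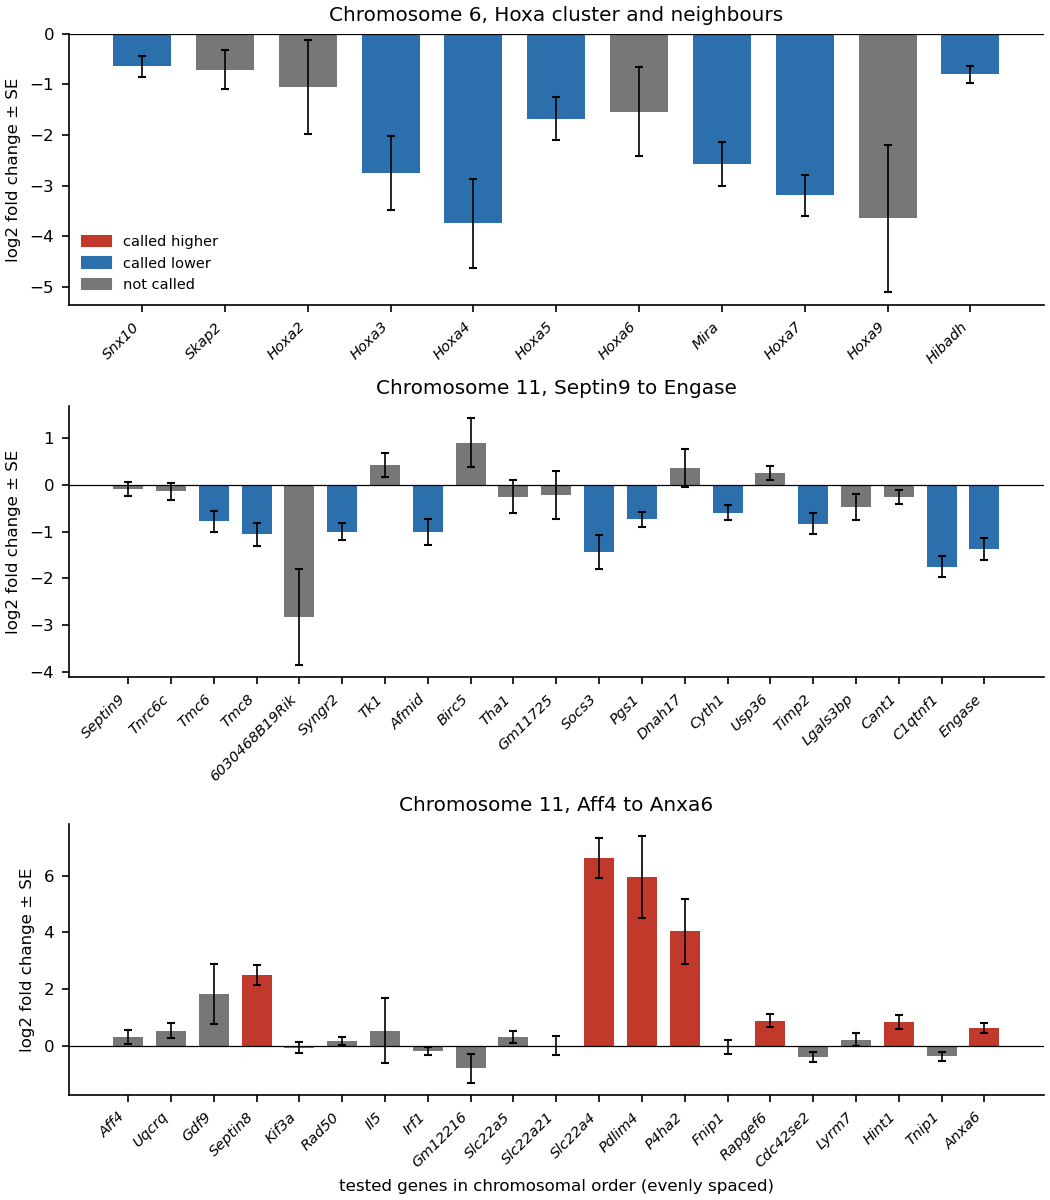
Log2 fold change of TG over WT young DN3a, with SE, for tested genes in chromosomal order around the Hoxa cluster, in the 21-gene stretch from Septin9 to Engase and in that from Aff4 to Anxa6, red where called higher, blue where called lower and grey otherwise. All 11 genes around Hoxa lie below 0, whereas in the third stretch the tall bars of Slc22a4, Pdlim4 and P4ha2 stand between neighbours near 0.

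The effect in DN3a cells of old mice, measured on separate libraries, shared most of these genes. Of the 636 genes higher in young TG DN3a, 510 were higher in old TG DN3a too, which is 80.2% of the young and 25.2% of the 2021 old calls (14.9% of all genes). Of the 698 lower, 515 were lower in old mice, 73.8% of the young and 24.2% of the 2125 old calls (15.7% of all genes). Opposite calls were made for 2 and 5 genes. The test of the difference between the old and the young effect called 413 of all genes (3.05%). It called 39 of the 636 higher genes, of which 28 had the larger effect in old mice, and 125 of the 698 lower genes, of which 98 had the larger effect in old mice. The count of 413 was 246 without WT replicate 1, 245 without WT replicate 2, 188 without TG replicate 1 and 263 without TG replicate 2 of the young mice, and 738 with DESeq2. Leaving out old libraries was added after the data were seen, and gave 247 without WT replicate 1, 254 without WT replicate 2, 192 without TG replicate 2 and 224 without TG replicate 3 of the old mice. With sex as a covariate, also added then, it was 377.

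Genes whose fall was larger in old mice included several named above. Ptcra had log2 fold changes of -1.63 ± 0.31 in young and -3.82 ± 0.34 in old mice (difference -2.19 ± 0.44, adjusted p = 0.0115). For Lrp1 they were -3.05 ± 0.34 and -7.23 ± 0.44 (difference -4.18 ± 0.54, adjusted p = 0.000401), and for Lyz2 -2.24 ± 0.33 and -4.64 ± 0.38 (difference -2.40 ± 0.50, adjusted p = 0.0113). Bcl11a (-4.14 ± 0.83, adjusted p = 0.00995), Pld4 (-2.22 ± 0.45, adjusted p = 0.0119) and H2-DMa (-1.97 ± 0.36, adjusted p = 0.00485) also fell further in old mice. The rise of Igf2bp3 was larger in old mice (0.83 ± 0.16 against 3.64 ± 0.19, difference 2.80 ± 0.24, adjusted p = 2.62e-06), as were those of Sox13 (2.11 ± 0.26, adjusted p = 0.000149) and Wnt5b (2.77 ± 0.55, adjusted p = 0.00865).

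Other effects were present in young mice and smaller or opposite in old. Irf8 fell in young mice and had a log2 fold change of -0.15 ± 0.36 in old mice (difference 2.48 ± 0.54, adjusted p = 0.0162). Ly6d had -1.61 ± 0.24 in young and -0.32 ± 0.23 in old mice (difference 1.29 ± 0.33, adjusted p = 0.0389), and Bcl2l11 -0.85 ± 0.18 and 0.23 ± 0.18 (difference 1.08 ± 0.25, adjusted p = 0.0245). H2-Q4 had 0.85 ± 0.23 in young and -0.73 ± 0.23 in old mice (difference -1.58 ± 0.32, adjusted p = 0.0111). The differences of Irf8, Bcl2l11 and Ly6d missed the threshold when single libraries of the 12 were left out. For Irf8 this was so without young WT replicate 1 or old TG replicate 2 (adjusted p up to 0.0543). For Bcl2l11 it was so without young WT replicate 1 or 2, young TG replicate 1, old WT replicate 2 or 3 or old TG replicate 3 (adjusted p up to 0.0806). Ly6d held only without young WT replicate 3, old WT replicate 1 or old TG replicate 1 (adjusted p up to 0.133 otherwise).

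The DN2 comparison gave a different picture. Of the 636 genes higher in young TG DN3a, 198 were higher in TG DN2 (31.1% of the DN3a calls and 11% of the 1797 DN2 calls, 13.3% of all genes) and 137 were lower there. Of the 698 lower, 181 were lower in TG DN2 (25.9% of the DN3a calls and 11.1% of the 1629 DN2 calls, 12.0% of all genes) and 119 were higher. The test of the difference between the DN3a and the DN2 effect called 2828 of all genes (20.9%), 315 of the 636 and 355 of the 698. Without WT replicate 1 of DN2, left out after the data were seen, the count was 1651. Of the 6 young DN3a mice, 5 also gave a DN2 library, and the fit had no term for the mouse. With the mouse as a block over the 11 young libraries, also added then, 2468 genes were called, against 2739 on the same libraries without the block. The DN2 libraries also differed in make-up between the genotypes. Mitochondrial genes held 13.4 and 12.2% of WT reads and 3.75, 2.25 and 1.96% of TG reads. The unnamed feature held 0.609 and 1.33% of WT reads and 3.81, 16.6 and 12.4% of TG reads. WT replicate 1 of DN2 had a read in 13028 genes, against 15089 to 15680 in the other DN2 libraries. What part this has in the stage differences was not tested.

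Genes with opposite effects at the 2 stages included both receptor kinases. Syk had log2 fold changes of -1.02 ± 0.16 in DN3a and 1.10 ± 0.18 in DN2 (difference -2.13 ± 0.24, adjusted p = 2.83e-05), and Zap70 1.75 ± 0.19 and -0.62 ± 0.21 (difference 2.37 ± 0.28, adjusted p = 3.07e-05). Pfkp rose in DN3a and had a log2 fold change of -1.78 ± 0.19 in DN2 (difference 3.38 ± 0.26, adjusted p = 4.30e-07), Cdkn2c -1.74 ± 0.37 (difference 4.02 ± 0.50, adjusted p = 4.56e-05) and Pcna -1.03 ± 0.27 (difference 2.00 ± 0.36, adjusted p = 0.000839). Bcl11a fell in DN3a and had a log2 fold change of 1.31 ± 0.45 in DN2 (difference -4.01 ± 0.65, adjusted p = 0.000392). Cd8a rose in DN3a and had 0.61 ± 0.68 in DN2 (difference 3.50 ± 0.91, adjusted p = 0.0136). P2rx7, Mdga1 and Cd2 rose at both stages and more in DN3a, with differences of 4.70 ± 0.46, 3.06 ± 0.56 and 3.92 ± 0.90 (adjusted p = 7.26e-06, 0.00131 and 0.00524). The differences of Cd2 and Cd8a were not called without WT replicate 1 of DN2 (adjusted p = 0.0644 and 0.172). Their WT levels in DN2 were 7.77 ± 0.506, 22.5 ± 2.13 and 0.793 ± 0.129 CPM (mean ± SD, n = 2), and 0.380 ± 0.207, 2.002 ± 2.16 and 0.506 ± 0.264 CPM in DN3a (SD, n = 3). The TG levels in DN2 were 86.0 ± 12.9, 373 ± 64.9 and 8.12 ± 6.74 CPM, and 110.6 ± 18.05, 279.5 ± 52.0 and 79.7 ± 14.6 CPM in DN3a (SD, n = 3). Ptcra and Rag1 fell at both stages and less in DN3a (differences 3.24 ± 0.49 and 1.63 ± 0.37, adjusted p = 0.000311 and 0.0043). For Lmo2, Hhex, Itgb7, Cd5 and Rag2 the difference between stages did not pass the test (adjusted p = 0.164, 0.992, 0.318, 0.479 and 0.638).

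**Figure D5:**
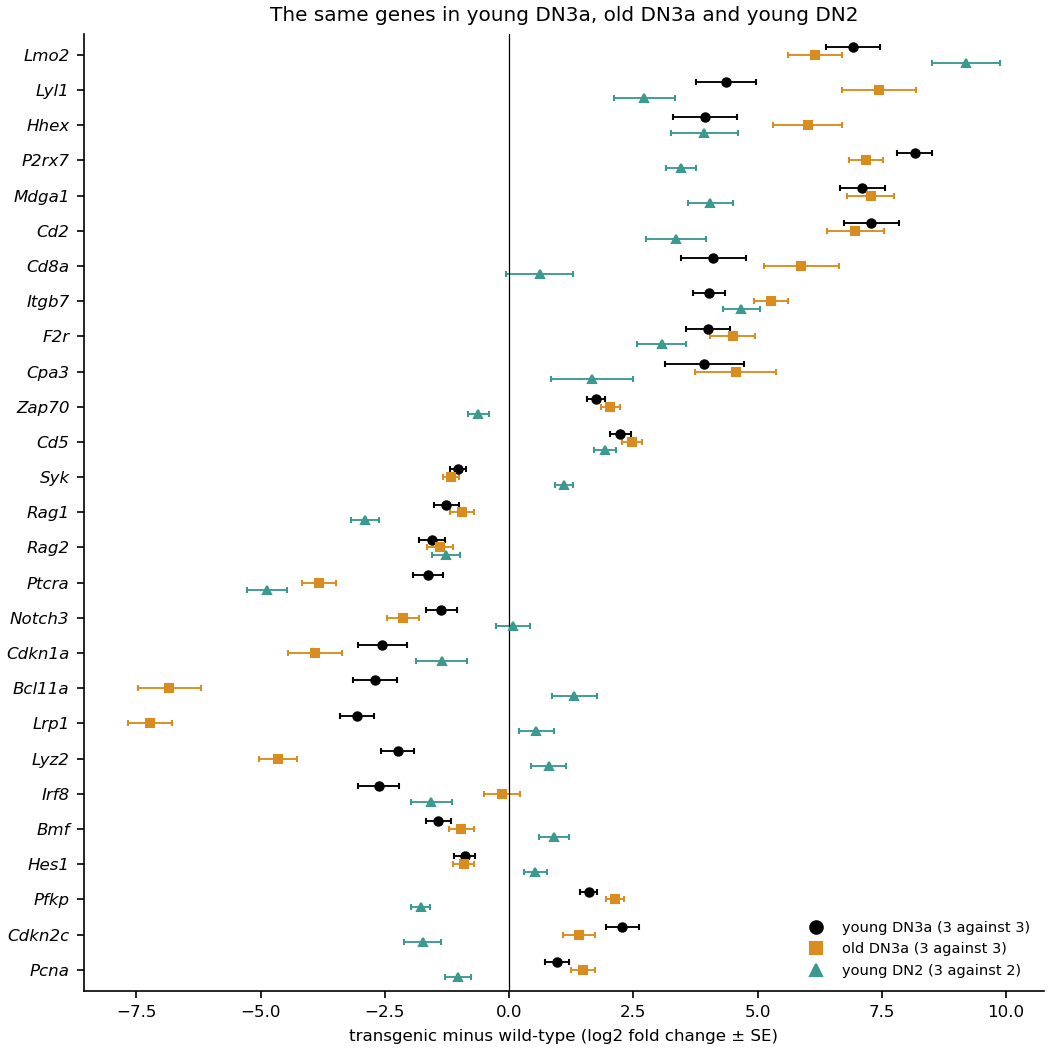
Log2 fold change of TG over WT, with SE, for 27 genes in young DN3a (black circles), old DN3a (orange squares) and young DN2 (green triangles). Syk, Zap70, Pfkp, Cdkn2c and Pcna lie on opposite sides of 0 in DN3a and DN2, and Lrp1 and Ptcra lie further below 0 in old than in young DN3a.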

How the data were processed

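RNA of sorted thymocytes was sequenced as single-end reads of 100 bases, per the labels' protocols. The authors deposited raw read counts, 1 value for each gene and library. The submitters' processing notes name featureCounts and mm10. Aligner, annotation and strand setting were not given in the sources used, so overlapping and antisense genes may share reads. The table holds 27179 gene identifiers, of which 25275 were named from RefSeq, 18 from GENCODE and 1886 not at all.

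Counts of all 17 libraries entered 1 fit with 6 group means, in edgeR 4.0.16 under R 4.3.3 (quasi-likelihood, robust, TMM scaling). Genes were kept by edgeR's filter at a minimum count of 10 in the smallest group and 15 in all. The contrasts were TG against WT in young DN3a, the old effect minus the young effect, and the DN3a effect minus the DN2 effect. A gene was called at p under 0.05 after Benjamini-Hochberg adjustment over all 13534 genes, and the common biological coefficient of variation was 0.244. Errors after ± are standard errors of log2 fold changes, or SDs of CPM where stated. A ratio by reads has an exact 95% interval for counting error only, and 3 reads over a group stand for a group without reads.

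Named genes were Lmo2, the 15 largest folds per direction among called genes with at least 5 CPM and no overlap, the 8 largest differences in CPM per direction, up to 5 called and the first 3 members of each of 36 lists (702 genes, 70 on more than 1 list), and the genes of the top windows of 11 neighbours. Predicted symbols and receptor segments were left out. Atp2a2, Camkk2, Cd34, Cd3d, Cd3g, Cd52, Cdkn2d, Gata2, Ift81, Itgae, Itgb2, Jak1, Ldb1, Pdk1, Rbl1, Syk, Tcf12 and Tcf3 fall outside this rule and were named after their values were seen. Some genes that the rule picks are not reported here. The comparison and the lists were chosen with earlier results of these data known.

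On simulated counts for the young DN3a comparison (13196 genes tested), the test recovered 8% of 50 genes planted at 1.5-fold, 44% at 2-fold, 96% at 4-fold and 96% at 8-fold. Of genes with no planted change, 0.0693% were called. The simulation gave each gene the same level in all groups apart from the planted changes, and planted them only in genes above a minimum mean level. Far fewer genes were changed than were called in the data, and the adjustment of p depends on that number. So these rates may differ from those in the data. Alternatives were other scaling (RLE), no filter, DESeq2 1.42.0, limma 3.58.1 voom, the 6 libraries alone, a replicate block, covariates for sex, for the letter in the library name and for the share of the unnamed feature, leaving out that feature with Lars2 and mitochondrial genes, a test against a fold of 1.5, windows of 21 genes, and leaving out each of the 6 young DN3a libraries. Added after the data were seen were leaving out each old or DN2 library for the age and stage differences, sex as a covariate for the age difference, and the mouse as a block for the stage difference.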

Additional observations from a re-analysis of the deposited data

Results flagged for a closer look

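The differences below are listed because the effect of the transgene was tested between ages or between stages and differed (edgeR quasi-likelihood test, Benjamini-Hochberg adjusted p under 0.05). Values are log2 differences between 2 effects. Between old and young DN3a, the old effect minus the young effect was -4.18 for Lrp1, -4.14 for Bcl11a, -2.40 for Lyz2, -2.22 for Pld4, -2.19 for Ptcra, -1.97 for H2-DMa and -1.58 for H2-Q4. It was 2.80 for Igf2bp3, 2.77 for Wnt5b, 2.48 for Irf8, 2.11 for Sox13, 1.29 for Ly6d and 1.08 for Bcl2l11. Of these 13 differences, 10 kept an adjusted p under 0.05 without each single library of the 12. The exceptions were Irf8, Ly6d and Bcl2l11.

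Between DN3a and DN2 of young mice, the DN3a effect minus the DN2 effect was -4.01 for Bcl11a and -2.13 for Syk. It was 4.70 for P2rx7, 4.02 for Cdkn2c, 3.92 for Cd2, 3.50 for Cd8a, 3.38 for Pfkp, 3.24 for Ptcra, 3.06 for Mdga1, 2.37 for Zap70, 2.00 for Pcna and 1.63 for Rag1. Of these 12 differences, 10 kept an adjusted p under 0.05 without each single library of the 11. The exceptions were Cd2 and Cd8a, both without WT replicate 1 of DN2.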

How the results depend on the processing

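The 1334 calls of TG against WT in young DN3a became 3692 with limma voom and quality weights and 505 when a fold of 1.5 was tested. They ranged from 738 to 1380 without 1 library. With RLE scaling, no filter, DESeq2, the 6 libraries alone, covariates for sex, library letter or the unnamed feature's share, and without that feature, Lars2 and mitochondrial genes, counts ranged from 1184 (the share) to 1897 (the letter). The share higher in TG was 42.4 to 53.9% over all settings, against 47.7%. The 413 differences between ages became 738 with DESeq2 and 642 with limma voom, and ranged from 188 to 604 without 1 of the 12 libraries. The 2828 differences between stages became 4571 with limma voom, and ranged from 1651 to 3589 without 1 of the 11 libraries. With the mouse as a block over these 11 they were 2468, and 2739 without the block. In windows of 21 genes in place of 11, the highest share of lower genes was 47.6% in place of 63.6%, and of higher genes 33.3% in place of 54.5%. For lower genes the top windows are different stretches, the Hoxa cluster for 11 genes and Septin9 to Engase for 21. For higher genes the longer window contains the shorter one. The Wilson intervals of the shorter windows were 35.4 to 84.8% and 28.01 to 78.7%. They treat neighbours as independent and ignore that the highest window was picked, so they cannot decide whether the shares agree. The cause of these changes was not tested.

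With a replicate block over the 6 young DN3a libraries, 2198 genes were called. Deviations of same-numbered WT and TG libraries correlated at -0.02, 0.10 and 0.22, and not every library correlated best with its own number, so the numbers were not taken to pair the mice.

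Of the 161 named calls, 111 held without each single young DN3a library. The 50 others were lost without WT replicate 1 (42, adjusted p up to 0.219), WT replicate 2 (43, up to 0.199), WT replicate 3 (15, up to 0.202), TG replicate 1 (25, up to 0.206), TG replicate 2 (28, up to 0.151) or TG replicate 3 (37, up to 0.191). Actb, Cdkn2d and Jak1 were lost without any one of the 6. Atp2a2, Satb1, Ccne1, Dhcr7, Lck, P2rx1, Socs2, Socs3, Gzmb, P2rx4 and Snx10 were lost without any of 5 of the libraries. Afmid, Anxa6, Bcl2l1, Camkk2, Erg, Itgax, Runx3, Zbp1, Cd160, Cd52, Cyth1, Hint1, Mbnl1, Smad7, Tmc6, Utp20, Ebp, Hoxa3, Kit, P4ha2 and Timp2 were lost without any of 4. Cdc6, Nolc1, Pcna, Pole and Tmc8 were lost without WT replicate 1, WT replicate 2 or TG replicate 3, H2-Q4 and Rapgef6 without WT replicate 1, WT replicate 2 or TG replicate 1, and Hoxa5 without WT replicate 3, TG replicate 2 or TG replicate 3. Pdlim4 was lost without WT replicate 2 or 3, Phf19 without WT replicate 1 or 2, Cd79b without WT replicate 1, Ets2 and Rbl1 without WT replicate 2, and Ifih1 and Lmo1 without TG replicate 3. With the replicate block Cd52, Cpa3, Gzmb and Itgax were lost, and with the unnamed feature's share as a covariate 18 were lost, among them Erg, Kit, Lck and Runx3.

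No named call changed direction. Of all 1334 calls, 1 did, without TG replicate 3. Among named genes that did not pass the test, some log2 fold changes changed sign. Slc22a21 stood at -0.010 with RLE, -0.0092 without the filter, -0.012 without the unnamed feature, Lars2 and mitochondrial genes, -0.022 with DESeq2, -0.26 with limma voom and -0.079 with the letter, and at -0.73 to 0.91 without 1 library. Tal1 stood at 1.69 with limma voom, 0.46 with the letter and -1.27 to 2.09 without 1 library. With the share as a covariate Cd44, Il2ra and Tcf3 stood at -0.19, -0.087 and 0.070. Without 1 library, Cd34 ranged from -0.40 to 4.17, Cd44 from -0.31 to 0.94, Dtx1 from -0.51 to 0.043, Fos from -0.073 to 2.07, Il2ra from -0.11 to 0.077 and Tcf3 from -0.16 to 0.043.

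With 3 mice a group, changes of 2-fold or less can be missed, and for genes with few reads the counting error alone spans several-fold.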
